A study of Homo sapiens with 12 samples.

Results

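Claudins are the membrane proteins that make up the strands of the epithelial tight junction, and 9 genes of the family (CLDN1, CLDN2, CLDN3, CLDN4, CLDN6, CLDN7, CLDN9, CLDN12 and CLDN15) were looked up by symbol in the authors' deposited tables. Rows were found for 6 of the 9, out of 12756 genes in each table: CLDN2, CLDN3, CLDN4, CLDN7, CLDN12 and CLDN15. CLDN1, CLDN6 and CLDN9 had no row under these symbols or under the RefSeq synonyms searched, and they were not analysed here. The RNA was polyadenylated RNA of HCT116, a long-established cell line from a human colorectal carcinoma. Cells were collected 48 hours after they were seeded, and each of 4 groups had 3 replicates by its labels. The groups were AGO2_KO (knockout of the Argonaute protein that carries microRNAs), ANKRD52_KO (knockout of a regulatory subunit of the PP6 phosphatase), ANKRD52;CSNK1A1_KO (double knockout of ANKRD52 and of casein kinase 1 alpha, called the double knockout from here on) and the parental line. All 4 groups are cells of the same line with no treatment named, and the labels do not say whether a knockout is 1 clone or a pool, or whether the replicates were separate cultures. The series concerns an Argonaute phosphorylation cycle in microRNA silencing, per its title.

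Each claudin spans the membrane several times and meets claudins of the neighbouring cell, and the mixture a cell makes sets how tight the layer is and which ions cross it. CLDN3, CLDN4 and CLDN7 are widely made in colonic epithelium and are mostly described as sealing or barrier claudins. CLDN2 and CLDN15 form cation-permeable channels in the gut, and CLDN12 is an atypical member that lacks the C-terminal motif through which other claudins hold the ZO scaffold proteins. In cells that lose epithelial features, the ZEB and SNAI repressors are known to bind E-box sequences at epithelial genes, and the ZEB messages are classical targets of the miR-200 family.

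The values are the authors' own: a log2 fold change of each knockout over the parental line, a mean log2 CPM (read counts scaled to library size) over all libraries, and raw and adjusted p-values. Per-library values were not used here, so no spread between replicates can be shown. The errors given are approximate standard errors (SE), obtained by dividing each log2 fold change by the root of the authors' likelihood ratio. A gene was called at the authors' adjusted p under 0.05, and the p-values rest on how far these libraries spread, which may be a technical spread only. Of the targeted genes in the authors' deposited tables, AGO2 had a log2 fold change of -1.07 in its knockout, CSNK1A1 one of -2.42 in the double knockout and ANKRD52 one of -0.65 there (adjusted p = 0.0477, 1.71e-10 and 2.32e-05). ANKRD52 RNA had 0.03 in the ANKRD52 knockout in the authors' deposited table (adjusted p = 0.915). Its RNA level therefore does not check that label, which is used here as given. All 6 epithelial markers listed (EPCAM, CDH1, KRT8, KRT18, KRT19 and CDX2) had rows. Their implied levels summed to 3421 CPM in the AGO2 knockout, 3182 CPM in the ANKRD52 knockout, 8694 CPM in the double knockout and 3316 CPM in the parental line. Of 9 markers of blood, endothelium and fibroblasts 6 had no row. The other 3 (LYZ, VWF and COL1A1) summed to 13.2 CPM in the AGO2 knockout, 13.4 CPM in the ANKRD52 knockout, 25.2 CPM in the double knockout and 12.6 CPM in the parental line, and LYZ and VWF rose in the double knockout (log2 fold changes 6.77 and 2.25 in the authors' deposited table). The part of these markers in the results was not tested.

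In the ANKRD52 knockout, CLDN2 rose 26.7-fold, CLDN7 fell 2.33-fold and CLDN4 fell 1.70-fold in the authors' deposited table. In the double knockout CLDN2 rose 4.47-fold and CLDN3 fell 3.34-fold in the authors' deposited table. In the AGO2 knockout none of the 6 claudins passed the threshold. CLDN12 and CLDN15 passed it in none of the 3 tables. The 3 comparisons share the parental libraries, so their values stand side by side and do not count as separate evidence. In bulk RNA, fewer cells that make a claudin and less RNA per cell cannot be told apart.

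**Figure D1:**
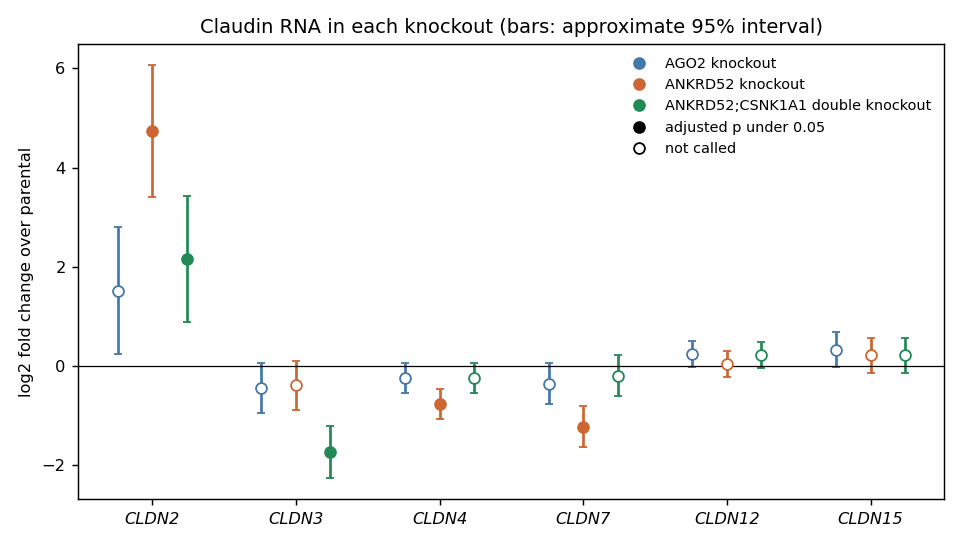
Log2 fold change over the parental line (vertical axis) of 6 claudins in 3 knockouts, from the authors' deposited tables, with approximate 95% intervals as bars; filled points have an adjusted p under 0.05. CLDN2 stands at 4.74 and 2.16 in the ANKRD52 and double knockouts, CLDN7 and CLDN4 are called only in the ANKRD52 knockout, and CLDN3 only in the double knockout.

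As counts, 0 of 6 claudins were called in the AGO2 knockout, where 6.10% of all genes were called by the authors' edgeR test (3.38% higher, 2.72% lower). Without adjustment 1 of the 6, CLDN2, was under 0.05. An F test in place of the chi-square tail called 0 of all genes in the AGO2 knockout (smallest adjusted p = 0.185). Every rise or fall named in that knockout therefore rests on the chi-square tail. In the ANKRD52 knockout 1 claudin rose and 2 fell, 3 of 6, where 13.7% of all genes were called (7.62% higher, 6.04% lower). With an F test in place of the chi-square tail, adjusted p was 0.0643 for CLDN2, 0.0746 for CLDN7 and 0.0839 for CLDN4 there, and 0 of 6 were called. In the double knockout 1 rose and 1 fell, 2 of 6, where 43.0% of all genes were called (22.9% higher, 20.1% lower). The median log2 fold change of the 6 claudins was 0.00 in the AGO2 knockout, -0.18 in that of ANKRD52 and 0.01 in the double knockout, and the median of all genes lay within 0.02 of 0 in each table. Members moved in opposite directions, so these medians hide the single changes.

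The levels behind these changes were worked out from each gene's mean CPM and its fold changes, taking the 4 groups as equal in size, and divided by the length of the main GENCODE transcript so that genes can be compared. In the parental line CLDN7 led with an implied 67.9 CPM per kb, followed by CLDN4 at 48.3, CLDN12 at 13.4, CLDN3 at 9.21, CLDN15 at 6.80 and CLDN2 at 0.0789 CPM per kb. In the ANKRD52 knockout CLDN7 and CLDN4 stood at 29.1 and 28.4 CPM per kb, a ratio smaller than the approximate SE of either fold change. CLDN3 lay below CLDN15 in each knockout, at 6.79 against 8.54 CPM per kb in the AGO2 knockout, 7.02 against 7.88 in the ANKRD52 knockout and 2.76 against 7.90 in the double knockout, and above it in the parental line. Neither CLDN3 nor CLDN15 was called in the AGO2 or the ANKRD52 knockout. CLDN2 was the lowest of the 6 in each group, at 0.226 CPM per kb in the AGO2 knockout, 2.11 in the ANKRD52 knockout, 0.352 in the double knockout and 0.0789 in the parental line. No replicate error can be put on this order. Summed without regard to length, the 6 claudins made up an implied 234 CPM in the AGO2 knockout, 172 CPM in the ANKRD52 knockout, 237 CPM in the double knockout and 262 CPM in the parental line. The share of CLDN2 in that sum was 3.64% in the ANKRD52 knockout and 0.0891% in the parental line. The implied parental level of CLDN2 behind these values, 0.234 CPM, became 0.476 CPM when the mean was taken on the log2 scale.

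**Figure D2:**
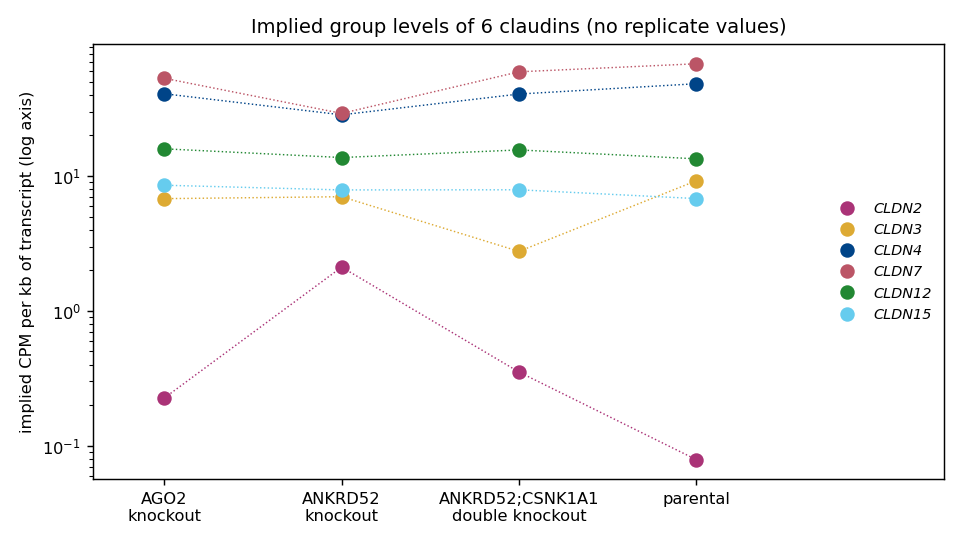
Implied level of each claudin in CPM per kb of transcript (log axis) in the 3 knockouts and the parental line; points are group values with no replicate error, and dotted lines only join the points of a gene. CLDN7 and CLDN4 are the top pair in each group, and CLDN2 lies between 0.0789 CPM per kb in the parental line and 2.11 CPM per kb in the ANKRD52 knockout; the parental CLDN2 value depends on the scale of the mean.

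CLDN7, which forms barrier strands and binds EPCAM along the lateral membrane, lies on chromosome 17 (chr17:7259903-7263213, minus strand, GRCh38). Its implied level was 81.7 CPM in the AGO2 knockout, 44.9 CPM in the ANKRD52 knockout, 91.3 CPM in the double knockout and 105 CPM in the parental line. The ANKRD52 knockout was the lowest of the 4 groups. In that knockout CLDN7 fell by 1.22 (log2) in the authors' deposited table (approximate SE 0.21, adjusted p = 1.35e-06), which placed it 65th among all falls. The log2 fold changes were -0.36 in the AGO2 knockout (SE 0.21, adjusted p = 0.315) and -0.20 in the double knockout (SE 0.21, adjusted p = 0.462) in the authors' deposited tables. Its median SE was wider than that of 91.5% of 200 genes of like expression. CLDN7 was lower in the ANKRD52 knockout than in the AGO2 knockout by the difference of the authors' fold changes (-0.87, SE 0.21, approximate 95% interval -1.28 to -0.45, adjusted p = 0.00171). That call was lost with a t distribution (adjusted p = 0.152) and with the sum of both squared SEs (0.163). CLDN7 was higher in the double than in the single ANKRD52 knockout (1.03, SE 0.21, adjusted p = 1.08e-05).

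The promoter sequences of CLDN7 and CLDN4, the claudins that fell in the ANKRD52 knockout, and of CLDN3, which fell in the double knockout, were read from RefSeq (GRCh38.p14) as windows of 250 bases before to 50 bases after a start site. They are shown 5′ to 3′ on the strand of the gene, with each CAGGTG on either strand in capitals (CACCTG on the strand shown where the match is on the other one), since these are the letters that ZEB and SNAI factors are known to bind.
CLDN7, chr17:7262429-7262728, minus strand: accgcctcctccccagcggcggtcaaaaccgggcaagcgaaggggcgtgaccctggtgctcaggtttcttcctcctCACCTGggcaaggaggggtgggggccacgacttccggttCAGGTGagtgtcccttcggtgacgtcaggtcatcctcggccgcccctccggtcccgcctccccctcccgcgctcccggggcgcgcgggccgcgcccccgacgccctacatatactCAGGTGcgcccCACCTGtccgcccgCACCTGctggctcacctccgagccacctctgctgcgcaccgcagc
CLDN4, chr7:73830746-73831045, plus strand: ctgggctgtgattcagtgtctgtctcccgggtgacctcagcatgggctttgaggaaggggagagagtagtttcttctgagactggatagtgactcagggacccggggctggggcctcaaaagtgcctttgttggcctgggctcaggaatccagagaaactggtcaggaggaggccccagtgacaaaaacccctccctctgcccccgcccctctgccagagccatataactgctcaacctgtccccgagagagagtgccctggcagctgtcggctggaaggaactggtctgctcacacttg
CLDN3, chr7:73770221-73770520, minus strand: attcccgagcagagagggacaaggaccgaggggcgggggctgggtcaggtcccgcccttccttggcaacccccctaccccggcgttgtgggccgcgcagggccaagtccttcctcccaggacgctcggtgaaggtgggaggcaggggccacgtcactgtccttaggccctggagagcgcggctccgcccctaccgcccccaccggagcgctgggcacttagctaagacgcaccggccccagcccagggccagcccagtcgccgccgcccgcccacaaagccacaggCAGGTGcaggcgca
The CLDN7 window held 5 matches, which began at -174, -135, -20, -9 and 5 from the start site, so that 3 of them lay around the start itself. Of 35116 RefSeq promoter windows of the same length, 20.6% held at least 1 match and 0.0940% held 5 or more. RefSeq lists another start for CLDN7 further upstream (chr17:7263164-7263463), whose window held 0 matches. The CLDN4 window held 0 matches and the CLDN3 window 1, at 36 from the start site. Neither window of CLDN2 and no window of CLDN12 or CLDN15 held one. These are matches of letters and not measured binding. Of the other sequences searched on both strands, the AP-1 letters TGANTCA stood in the CLDN4 window at 2 places (0.515% of windows held as many) and the SP and KLF letters CCGCCC in the CLDN3 window at 6 (2.86% held as many). The AP-1 letters also stood at 1 place in a CLDN2 window and in that of CLDN15 (7.71% of windows held a match). CCGCCC also stood in windows of CLDN7, CLDN4 and CLDN15 (45.0% held a match). TCF and LEF letters (CTTTGA) stood in the CLDN4 window and TEAD letters (GGAATG) in that of CLDN15. The grainyhead letters AACNGGTT, the CDX letters TTTATG and the TATA box letters TATAAA were in none of the windows of the 6 claudins.

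CLDN4, a barrier claudin known together with CLDN3 as a receptor of Clostridium perfringens enterotoxin, is a gene with 1 exon on chromosome 7 (chr7:73830996-73832690, plus strand, GRCh38). Its implied level was 74.5 CPM in the AGO2 knockout, 52.0 CPM in the ANKRD52 knockout, 74.2 CPM in the double knockout and 88.4 CPM in the parental line. The ANKRD52 knockout was again the lowest group. CLDN4 fell by 0.77 (log2) there in the authors' deposited table (SE 0.16, adjusted p = 6.12e-05). In the AGO2 and double knockouts the authors' deposited tables gave -0.25 each (adjusted p = 0.355 and 0.179). The difference between the double and the single ANKRD52 knockout was 0.51 (SE 0.16, adjusted p = 0.00442, or 0.0510 with a t distribution and 0.0917 with the sum of both squared SEs). That between the ANKRD52 and the AGO2 knockout was -0.52 (adjusted p = 0.0158), and it lost its call (-0.36, adjusted p = 0.129) once the median of the 40 neighbouring genes was taken from each fold change.

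CLDN3, also a barrier claudin with 1 exon, lies 60.7 kb from CLDN4 (chr7:73768997-73770270, minus strand, GRCh38). It had an implied 8.65 CPM in the AGO2 knockout, 8.94 CPM in the ANKRD52 knockout, 3.52 CPM in the double knockout and 11.7 CPM in the parental line. The double knockout was the lowest group. CLDN3 fell there by 1.74 (log2) in the authors' deposited table (SE 0.27, adjusted p = 1.67e-09). The authors' deposited tables gave -0.44 in the AGO2 knockout (SE 0.26, adjusted p = 0.315) and -0.39 in the ANKRD52 knockout (SE 0.26, adjusted p = 0.331). CLDN3 was lower in the double knockout than in the single ANKRD52 knockout (difference -1.35, SE 0.26, adjusted p = 3.42e-06) and than in the AGO2 knockout (-1.30, SE 0.26, adjusted p = 6.51e-06). CLDN3 and CLDN4, which neighbour each other, had their calls in different knockouts, but the genes were not tested against each other. In the ANKRD52 knockout both were below 0 and their approximate 95% intervals overlapped (-0.90 to 0.11 for CLDN3, -1.07 to -0.46 for CLDN4). In the double knockout the intervals did not overlap (-2.26 to -1.21 for CLDN3, -0.56 to 0.05 for CLDN4).

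CLDN2, the cation and water channel former of leaky epithelia, lies on chromosome X (chrX:106900164-106930861, plus strand, GRCh38). It had an implied 0.669 CPM in the AGO2 knockout, 6.24 CPM in the ANKRD52 knockout, 1.04 CPM in the double knockout and 0.234 CPM in the parental line. The fold changes therefore rest on a low parental level. CLDN2 rose by 4.74 (log2) in the ANKRD52 knockout in the authors' deposited table (SE 0.68, adjusted p = 1.75e-09), the 7th largest rise of all genes. In the authors' deposited table it rose by 2.16 in the double knockout (SE 0.65, adjusted p = 0.00323). In the AGO2 knockout it had 1.52 (SE 0.65, p = 0.0194, adjusted p = 0.141) in the authors' deposited table. Its median SE was wider than that of 98.0% of 200 genes of like expression. CLDN2 was higher in the ANKRD52 than in the AGO2 knockout (difference 3.22, SE 0.67, adjusted p = 0.000129) and lower in the double than in the single ANKRD52 knockout (-2.58, SE 0.66, adjusted p = 0.000651). The first of these calls was lost with a t distribution (adjusted p = 0.127) and with the sum of both squared SEs (0.0616). Between the double and the AGO2 knockout the difference of 0.64 did not pass (approximate 95% interval -0.63 to 1.91, adjusted p = 0.449). MORC4, on the other strand, overlaps the gene in the GENCODE annotation and shares 0 exon bases with it. The strand setting used in counting is not given in the sources used here. As no exon base is shared, this concerns only MORC4 reads from outside its own exons, whose part was not examined.

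Of the 6 claudins, CLDN2 was the member called in at least 2 tables. Among genes averaging 1 or more on the log2 CPM scale, those whose 3 log2 fold changes lay nearest to those of CLDN2, by Euclidean distance over 11876 candidates, were VIM (distance 1.52), TNFSF4 (1.98) and DCLK1 (2.11). VIM, a mesenchymal intermediate filament gene, had log2 fold changes of 2.57 in the AGO2 knockout, 4.44 in that of ANKRD52 and 1.10 in the double knockout in the authors' deposited tables. TNFSF4, a cytokine of the tumour necrosis factor family, had 0.08, 3.43 and 2.54 and the kinase DCLK1 2.25, 3.19 and 3.38 in the same order of knockouts in the authors' deposited tables. Each of the 3 was called in the ANKRD52 knockout, and VIM was not called in the double knockout (adjusted p = 0.110). The 3 genes were picked by these same fold changes, so their rise in the ANKRD52 knockout is no separate evidence.

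CLDN12 and CLDN15 showed the narrowest range. CLDN12, at chr7:90403461-90415954 (plus strand, GRCh38), had an implied 56.7 CPM in the AGO2 knockout, 48.9 CPM in the ANKRD52 knockout, 55.7 CPM in the double knockout and 47.8 CPM in the parental line. Its log2 fold changes in the authors' deposited tables were 0.25, 0.03 and 0.22 in the AGO2, ANKRD52 and double knockouts, with approximate 95% intervals of -0.01 to 0.51, -0.23 to 0.30 and -0.04 to 0.48. CLDN15, at chr7:101232094-101238820 (minus strand, GRCh38), had an implied 11.7 CPM in the AGO2 knockout, 10.8 CPM in the ANKRD52 knockout, 10.8 CPM in the double knockout and 9.32 CPM in the parental line. The log2 fold changes of CLDN15 in the authors' deposited tables were 0.33, 0.21 and 0.22 in the same order of knockouts (intervals -0.02 to 0.68, -0.14 to 0.57 and -0.14 to 0.57). Neither gene was called in any difference between knockouts, which bounds its changes but does not show that it stayed the same.

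**Figure D3:**
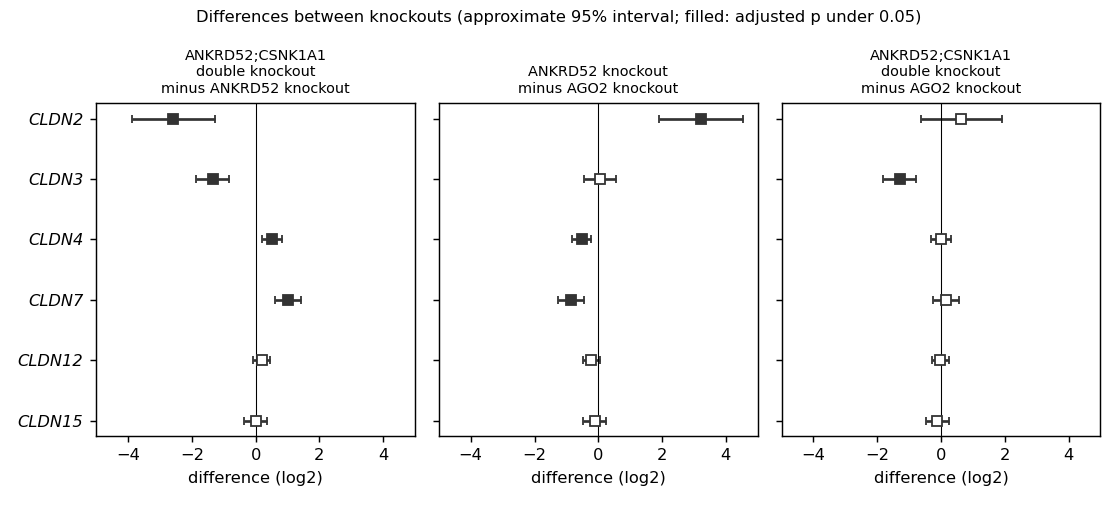
Difference of log2 fold changes between pairs of knockouts (horizontal axis) for each claudin, with approximate 95% intervals; filled squares have an adjusted p under 0.05. CLDN2 and CLDN3 lie below 0 and CLDN4 and CLDN7 above 0 in the double against the single ANKRD52 knockout, and CLDN3 alone is called in the double against the AGO2 knockout.

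Counted over the differences, 4 of 6 claudins differed between the double and the single ANKRD52 knockout (2 higher, 2 lower), where 34.3% of all genes did (18.5% higher, 15.7% lower). Between the ANKRD52 and the AGO2 knockout 3 of 6 differed (1 higher, 2 lower), where 9.32% of all genes did (5.57% higher, 3.75% lower), and 0 of 6 did with a t distribution with 8 degrees of freedom or with the sum of both squared SEs. Between the double and the AGO2 knockout 1 of 6 was lower, where 42.3% of all genes differed (22.3% higher, and 2553 genes, 20%, lower).

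As 4 of the 6 claudins lie on the long arm of chromosome 7, each member was set beside the 20 measured genes on each side of it. In the AGO2 knockout the 40 neighbours of CLDN12 had a median log2 fold change of 0.34, above the 0.25 of CLDN12 itself, and those of CLDN15 one of 0.20. The neighbours of CLDN3 and CLDN4 had medians of 0.12 and 0.11 there, while both claudins were below 0. After the neighbours' median was taken off, CLDN12 stood at -0.09 (adjusted p = 0.775) and CLDN15 at 0.13 (adjusted p = 0.761) in the AGO2 knockout. In the ANKRD52 knockout the neighbours of CLDN7 had a median of -0.01 and those of CLDN4 of -0.05, far from the members' own values. CLDN2 had neighbours at 0.15 in that knockout.

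**Figure D4:**
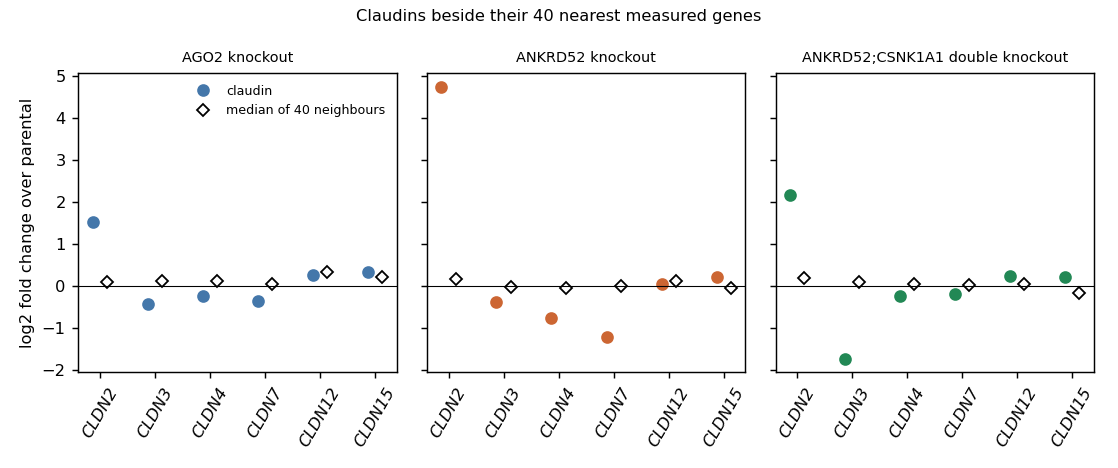
Log2 fold change over the parental line of each claudin (coloured points) and the median of its 40 nearest measured genes (open diamonds) in the 3 knockouts. In the AGO2 knockout CLDN12 and CLDN15 lie near their neighbours' medians of 0.34 and 0.20, whereas CLDN2, CLDN4 and CLDN7 in the ANKRD52 knockout and CLDN3 in the double knockout lie apart from theirs.

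Since AGO2 acts through microRNA sites in 3′ UTRs, the main transcript of each claudin in GENCODE release 29 was searched for the 7 bases that pair with the seed (bases 2 to 8) of 18 microRNA families. The 3′ UTR of CLDN7 (471 bases) held a site for 0 of the 18 families. That of CLDN4 (862 bases) held 1 site, that of CLDN15 (318 bases) 1, that of CLDN3 (390 bases) 2, that of CLDN2 (1940 bases) 3 and that of CLDN12 (2543 bases) 4. The microRNAs with sites in CLDN2 and CLDN12, the longest of these 3′ UTRs, include the following (seed in capitals), and below them stand the sites of CLDN2, CLDN12, CLDN3 and CLDN4 with the seed match in capitals.
hsa-miR-17-5p: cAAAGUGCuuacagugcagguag
hsa-miR-16-5p: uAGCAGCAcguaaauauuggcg
hsa-let-7a-5p: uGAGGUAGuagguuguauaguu
CLDN2 site for miR-17: acccatttctcaggGCACTTTccagaatt
CLDN2 first site for miR-16: atcgtgtcagaaggTGCTGCTgaggatag
CLDN2 second site for miR-16: tgttttcctcacctTGCTGCTcccctgcc
CLDN12 site for let-7: tttgtgactttcttCTACCTCatgccact
CLDN12 site for miR-16: ctagtagaatgaagTGCTGCTagttttta
CLDN12 site for miR-30: ggaccttgaaattcTGTTTACttcagtcc
CLDN12 site for miR-23: agtatattatattaAATGTGAatttttta
CLDN3 site for miR-27: accaacctgcatggACTGTGAaacctcac
CLDN3 site for miR-26: tgggtgaccgccaaTACTTGAccaccccg
CLDN4 site for miR-24: ggactgggcagagaCTGAGCCaggcagga
Among 11257 3′ UTRs of measured genes, 23.4% held the miR-17 match GCACTTT, 23.7% the miR-16 match TGCTGCT and 10.5% the let-7 match CTACCTC. The matches for miR-30, miR-26, miR-27, miR-23 and miR-24 stood in 17.3%, 12.9%, 16.9%, 19.7% and 16.7% of them. The sites of let-7, miR-16 and miR-23 in CLDN12, of miR-27 in CLDN3 and of miR-24 in CLDN4 are followed by an A, the form that is usually the strongest. In the AGO2 knockout the authors' deposited table gave CLDN2 1.52, CLDN12 0.25, CLDN15 0.33, CLDN3 -0.44 and CLDN4 -0.25 (log2). CLDN7, which held no site, had -0.36 there, and none of these genes was called. MicroRNA levels were not used here, and a match is no evidence that a site is in use.

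The transcription and splicing regulators of the epithelial state that act around the claudins were described from a list of 21 genes, of which 19 were measured. In the ANKRD52 knockout 5 of them rose and 6 fell (median log2 fold change -0.11), and in the double knockout 6 rose and 1 fell (0.49). In the AGO2 knockout 1 rose and 1 fell (-0.09). Of all genes, 7.62% rose and 6.04% fell in the ANKRD52 knockout, 22.9% rose and 20.1% fell in the double knockout, and 3.38% rose and 2.72% fell in the AGO2 knockout. ZEB2, a repressor of epithelial genes, rose by 4.82 (log2) in the ANKRD52 knockout in the authors' deposited table (SE 0.54, adjusted p = 1.82e-15). Its implied level was 1.51 CPM there and 0.0536 CPM in the parental line. The splicing factor ESRP1 fell by 0.92 there and by 0.55 in the AGO2 knockout in the authors' deposited tables (adjusted p = 6.87e-06 and 0.0275). CDX2, an intestinal transcription factor known to act on the CLDN2 promoter, had -0.27 in the ANKRD52 knockout (adjusted p = 0.116) and rose by 2.67 in the double knockout in the authors' deposited tables (adjusted p 1.93e-105). KLF5, HNF4A and EHF rose by 2.31, 1.17 and 6.55 in the double knockout in the authors' deposited table. EHF and KLF5 also rose in the ANKRD52 knockout, by 2.64 and 0.41 (adjusted p = 0.00949 and 0.0485). HNF4A had 0.09 there (adjusted p = 0.748), these values too from the authors' deposited table. ZEB1 and GRHL2, named after their values had been seen, had log2 fold changes of 2.78 and -2.03 with ANKRD52 knocked out alone and of 0.49 and 0.36 in the double knockout in the authors' deposited tables (adjusted p = 3.43e-05, 0.00830, 0.463 and 0.634). ZEB1 also rose by 1.58 in the AGO2 knockout (adjusted p = 0.0465), a call that did not hold with an F test. SNAI2 rose by 1.44 in the ANKRD52 and by 1.72 in the double knockout (adjusted p = 0.00347 and 4.26e-05). SNAI1 had -0.11 and 0.02 in these knockouts and was not called. The SNAI values, also from the authors' deposited tables, were likewise named after being seen. The part of any of these regulators in the claudin values was not tested.

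The other proteins of the tight junction, its scaffolds and adhesion molecules, were described from a list of 15 genes. Of the 13 that were measured, 3 fell and 0 rose in the ANKRD52 knockout (median log2 fold change -0.28), 3 rose and 1 fell in the double knockout (0.18), and 1 rose and 1 fell in the AGO2 knockout (-0.15). The count in the double knockout is near the shares of all genes that rose (22.9%) and fell (20.1%) there. In the ANKRD52 knockout 6.04% of all genes fell, and in the AGO2 knockout 3.38% rose and 2.72% fell. MARVELD3, a tight junction protein related to occludin, fell by 1.16 (log2) in the ANKRD52 knockout in the authors' deposited table (SE 0.23, adjusted p = 3.78e-05), and TJP3 (-0.51) and the junctional adhesion molecule F11R (-0.30) fell as well. The adhesion receptor CXADR rose by 1.17 in the double knockout in the authors' deposited table (adjusted p = 3.75e-12), where CGNL1, a cingulin relative, rose by 0.59 and TJP3 fell by 0.77. MARVELD2, which seals corners where cells meet, rose by 0.39 and CGNL1 fell by 0.43 in the AGO2 knockout in the authors' deposited table. Neither call there held with an F test, which called 0 of all genes. Set against the single ANKRD52 knockout, 7 of the 13 were higher in the double knockout and 0 lower (median difference 0.47, against 0.00 over all genes), where 18.5% of all genes were higher and 15.7% lower. The epithelial markers were also higher there, 6 of 6 against the single ANKRD52 knockout and 5 of 6 against the parental line, and their part in these list values was not tested. Of these markers, EPCAM and CDH1 are also counted among the claudin partners and CDX2 among the regulators. Those lists are therefore not separate from the markers.

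Of 10 measured polarity genes, 2 fell in the ANKRD52 knockout (median log2 fold change -0.11), 3 rose and 1 fell in the double knockout (0.15), and 0 were called in the AGO2 knockout (-0.12). The count in the double knockout is near the 22.9% of all genes that rose and the 20.1% that fell there, while 6.04% of all genes fell in the ANKRD52 knockout. By the authors' deposited table, CRB3, the apical Crumbs protein, had a log2 fold change of -0.80 and INADL, which links Crumbs to tight junctions, one of -0.46 in the ANKRD52 knockout, both falls (adjusted p = 0.000125 and 0.00495). INADL rose by 1.18 in the double knockout (adjusted p = 1.05e-18), where PARD3, a scaffold of the PAR complex, fell by 0.52 (adjusted p = 7.98e-06), both values from the authors' deposited table. Of 10 claudin partners 4 fell and 0 rose in the ANKRD52 knockout (median -0.34), 6 rose and 0 fell in the double knockout (0.43), and 1 rose in the AGO2 knockout (-0.16). Over all genes, 6.04% fell in the ANKRD52 knockout, 22.9% rose in the double knockout and 3.38% rose in the AGO2 knockout. EPCAM, which binds CLDN7, fell by 0.81 in the ANKRD52 knockout in the authors' deposited table (SE 0.19, adjusted p = 0.000545), and the protease ST14 by 1.10. In the double knockout EPCAM had 0.13 (adjusted p = 0.596), while the tetraspanins CD82, CD9 and CD81 rose by 1.08, 0.46 and 0.39 in the authors' deposited table. EPHA2, a kinase that phosphorylates claudins, rose by 1.14 in the double and by 0.59 in the AGO2 knockout in the authors' deposited tables. All 10 partners were higher in the double than in the single ANKRD52 knockout by the difference of the authors' fold changes (median 0.83), where 18.5% of all genes were higher. EPCAM and CDH1 among these partners are also in the list of epithelial markers.

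**Figure D5:**
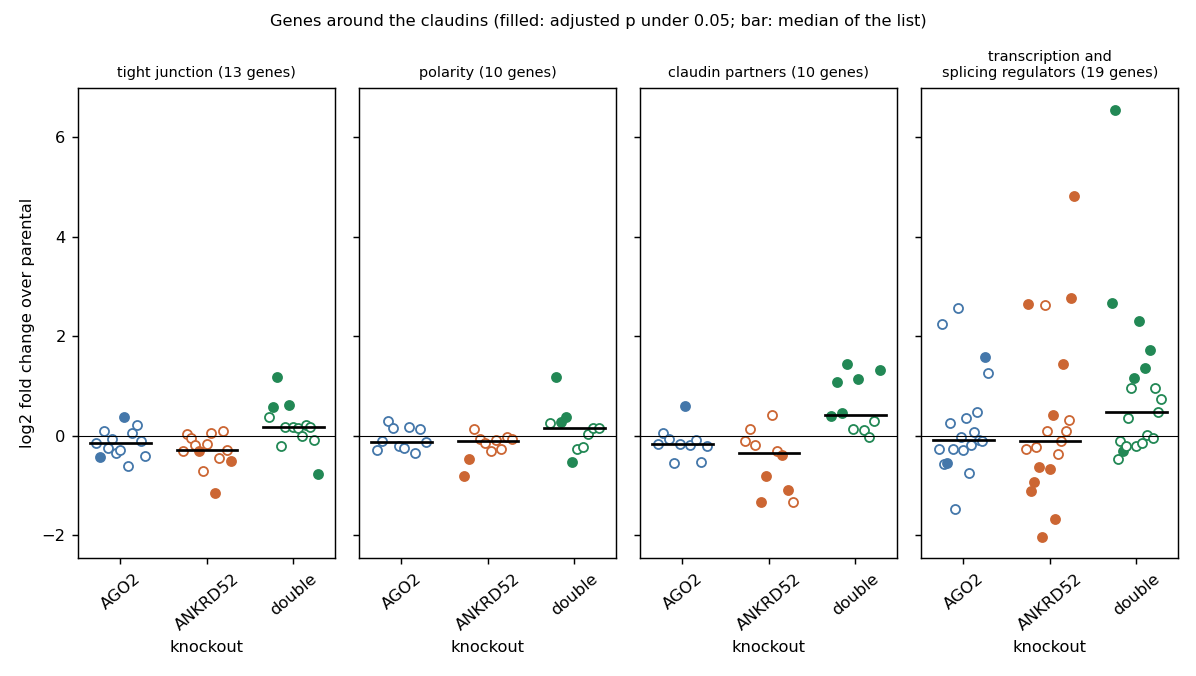
Log2 fold change over the parental line (vertical axis) of each measured gene in 4 lists around the claudins, by knockout; filled points have an adjusted p under 0.05 in the authors' deposited tables and bars are list medians. The claudin partners have medians of -0.16, -0.34 and 0.43 in the AGO2, ANKRD52 and double knockouts.

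Of 17 other claudin and claudin domain genes looked up, 2 had rows. CLDN23 had log2 fold changes of -0.07, 0.01 and -0.10 in the AGO2, ANKRD52 and double knockouts in the authors' deposited tables and was called in none. CLDND1, a claudin domain protein outside the tight junction family proper, had an implied 278 CPM in the AGO2 knockout, 319 CPM in the ANKRD52 knockout, 120 CPM in the double knockout and 275 CPM in the parental line. It fell by 1.19 in the double knockout in the authors' deposited table (SE 0.17, adjusted p = 5.78e-11).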

How the data were processed

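Tools named in the submitters' processing notes, without role or order, are edgeR 3.8.6, featureCounts 1.4.6 and TopHat2 2.0.12, beside the genome build hg19; libraries were stranded, per the labels' protocols. The deposited files are edgeR tables, 1 per knockout, per the file headers. They give the authors' log2 fold change and mean log2 CPM, a likelihood ratio score made by the authors, and the authors' p-value with its adjusted value. Recomputed from the likelihood ratios, chi-square tails (1 degree of freedom) equalled the p-values, and Benjamini-Hochberg values over 12756 genes equalled the adjusted ones. Read totals are not given in the tables used, and library depth is therefore unknown.

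To compare knockouts with each other, one log2 fold change was subtracted from the other. The variance of the difference was the mean of both squared SEs, since the parental level drops out, with a two-sided normal test and Benjamini-Hochberg adjustment over all genes. Where a likelihood ratio was under 0.001, the median SE of the other tables was used. A run of the test on simulated data used normal noise and known SEs. It therefore does not check the SEs obtained from likelihood ratios or the tail of the test. Genes were placed by RefSeq symbol (11543) or synonym (956), and 257 were not placed. Promoters and microRNAs came from RefSeq (GRCh38.p14) and 3′ UTRs from GENCODE release 29. Positions are given in GRCh38, which is not the authors' build. The members and lists were chosen with earlier results of these data known. Named were all members with rows, the targeted genes, up to 6 genes per list with the smallest p in any table, and the 3 genes nearest to a member called in at least 2 tables. Computations ran in Python 3.11.15 with pandas 2.3.3, scipy 1.17.1 and numpy 2.4.6, and plots in matplotlib 3.10.9.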

Additional observations from a re-analysis of the deposited data

How the results depend on the processing

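No paired analysis was possible because the tables hold no per-library values, and leaving out a replicate could not be run for the same reason. All 18 knockout-against-parental values kept their side of the threshold at an adjusted p under 0.01, among genes of log2 CPM 1 or more, with centring on the median, and after the neighbours' median was taken off. The last turned the sign of CLDN12, not called either way, in the AGO2 (-0.09) and ANKRD52 (-0.07) knockouts, and of uncalled differences from the AGO2 knockout of CLDN12 and CLDN15 (ANKRD52 and double) and CLDN4 (double). Under an F test (1 and 8 degrees of freedom), 0 claudins were called in the ANKRD52 knockout (3 at an unadjusted p under 0.05; adjusted p = 0.0643 for CLDN2, 0.0746 for CLDN7 and 0.0839 for CLDN4), where 3 of all genes were called, while the calls of CLDN2 and CLDN3 in the double knockout held. The ANKRD52 knockout less the AGO2 knockout had 0 called claudins with a t distribution with 8 degrees of freedom (3 unadjusted; adjusted p = 0.127 for CLDN2, 0.152 for CLDN7 and 0.194 for CLDN4) and 0 with the sum of both squared SEs (3 unadjusted; 0.0616, 0.163 and 0.345); the t distribution called 0 of all genes there. CLDN4 lost its call in the double less the ANKRD52 knockout under both (adjusted p = 0.0510 and 0.0917), and in the ANKRD52 less the AGO2 knockout at 0.01. In the AGO2 knockout against the parental line the F test called 0 of all genes. The F and t distributions have heavier tails with the same SEs, and the summed SEs are wider.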

Other observations

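MORC4, which overlaps CLDN2 on the other strand in the GENCODE annotation, had log2 fold changes of 0.35 in the AGO2 knockout (adjusted p = 0.203), 1.01 in the ANKRD52 knockout (adjusted p = 5.20e-07) and 0.60 in the double knockout (adjusted p = 0.00164) in the authors' deposited tables. CLDN2 itself had 1.52, 4.74 and 2.16, and the median of its 40 neighbours was 0.10, 0.15 and 0.18. The pair shares 0 exon bases, and MORC4 was looked at because of its position. ELP5, which lies on the other strand of CLDN7 and shares 38 exon bases with it, had -0.01 in the AGO2 knockout (adjusted p = 0.981), 0.03 in the ANKRD52 knockout (adjusted p = 0.916) and -0.44 in the double knockout (adjusted p = 0.00455) in the authors' deposited tables. CLDN7 had -0.36, -1.22 and -0.20 in the same order and was called in the ANKRD52 knockout. The strand setting used in counting is not given, so reads over the 38 shared bases (1.52% of the CLDN7 exon bases) may not be told apart.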
